A study of Rattus norvegicus with 35 samples.

Results

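Gene expression after 4 h of cyclic mechanical stretch was compared with unstretched control in neonatal rat ventricular myocytes (NRVMs), the beating muscle cells isolated from the ventricles of newborn rats. The comparison comprised the 5 arrays of myocytes stretched for 4 h and the 5 arrays of control myocytes of the same set of cultures, chosen by their labels, 10 of 35 arrays in the series, and all probe sets of the array except its technical controls. The myocytes came from 2 to 4 days old Sprague-Dawley pups of both sexes, were enriched by pre-plating, and were grown on flexible, collagen-coated plates in serum-free medium. The stretched groups received cyclic vacuum under the plate and differed only in its duration, stretch was begun at different times so that all ended together, and the control plates of this set received none. The control arrays were those with the letter a in their titles, and the same fit also held 5 arrays of 1 h and 5 arrays of 12 h of stretch, which share that control. Each group had 5 biological replicates. Pre-plating lowers but does not remove the other cells of the heart, and newborn myocytes are not mature, which limits them as a model of the adult ventricle.

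Cardiac myocytes hardly divide after birth and respond to load by growing. Stretch is sensed at cell contacts, the cytoskeleton and ion channels, and is passed on by mitogen-activated protein kinases to transcription factors that are already in the cell. These switch on immediate early genes such as Fos and Egr1 within minutes, whose products act on a second wave of genes, among them those for secreted factors, the cytoskeleton and the machinery that makes ribosomes. In the adult heart, sustained load is known for the return of fetal genes and for a lower use of fatty acids.

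RNA was measured on Affymetrix Rat Genome 230 2.0 arrays, where several short probes against 1 transcript form a probe set. The deposited values were intensities on a linear scale, normalized by the authors with Robust Multichip Average, and they were taken to log2 here. Median intensities were 89.8 to 91.7 on the 4 h arrays and 91.5 to 93.0 on the control arrays, and within a group, arrays correlated at 0.992 to 0.998 at 4 h and at 0.997 to 0.998 in control. Replicate 5 of the 4 h group stood apart from the other 4, with the lowest upper quartile (341 against 356 to 372 on the other 9 arrays) and an array weight of 0.262, so counts are also given without it. Precision was set by the number of arrays, with a median SD between replicates of 0.127 at 4 h and 0.0902 in control on the log2 scale. Muscle genes had high intensities in all 10 arrays. The summed intensity of 14 cardiomyocyte markers was 135400 to 142900 at 4 h and 137600 to 143300 in control. That of 12 fibroblast markers was 68430 to 73020 at 4 h and 75910 to 81310 in control, lower on every stretched array than on every control array. In bulk RNA, fewer cells of a type and less RNA per cell cannot be told apart. Markers of endothelial cells and macrophages summed to at most 3869 and 2232.

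Of 31042 probe sets, 953 (3.07%) differed at least 1.5-fold between stretched and control myocytes with an adjusted p under 0.05 (limma, 1 mean per group over the 20 arrays of the set, Benjamini-Hochberg over all probe sets), 471 higher (1.52%) and 482 lower (1.55%). At the 2-fold limit there were 156 (0.503%), 83 higher (0.267%) and 73 lower (0.235%). Without replicate 5 of the 4 h group these counts were 906 and 136, and 822 of the 953 probe sets were called in both fits. With no limit on the fold change, 9121 probe sets (29.4%) passed, 14.2% higher and 15.2% lower. The 20 arrays share 1 estimate of the spread per probe set. With the 2 groups fitted alone, 7756 probe sets passed with no limit and 950 at 1.5-fold. Among probe sets specific to 1 gene, the one with the highest mean intensity stood for each gene. Of 14217 genes, 507 (3.57%) were called at 1.5-fold, 250 higher (1.76%) and 257 lower (1.81%), and the 5 stretched arrays did not overlap the 5 control arrays in 500 of them. Over all genes, the 5 stretched arrays lay wholly above the control arrays in 1921 (13.5%) and wholly below them in 2079 (14.6%). Most called genes moved less than 2-fold (198 of the higher and 221 of the lower), and 88 (0.619%) moved more, 52 higher (0.366%) and 36 lower (0.253%). Another probe set of the same gene was available for 195 called genes, and for 138 of them such a probe set also passed the test in the same direction, for 0 in the opposite direction.

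**Figure D1:**
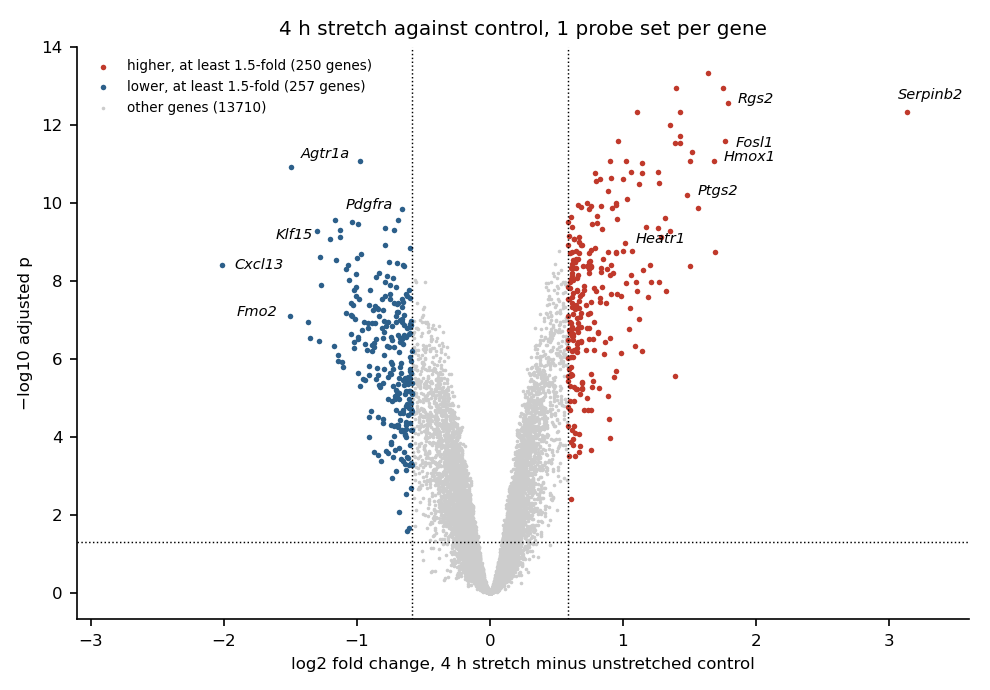
Each point is a gene (1 probe set each, n = 5 arrays per group), with the log2 fold change of 4 h stretch minus control on the x axis and the negative log10 of the adjusted p on the y axis, and dotted lines at 1.5-fold and at an adjusted p of 0.05. Serpinb2 lies alone at 3.13 on the right, Cxcl13 at -2.01 on the left, and 250 and 257 genes pass both limits on the higher and the lower side.

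The largest rises and falls were taken among called genes whose stretched arrays did not overlap the control arrays. Separation was thus a condition of choice for them. The gene with the highest rise was Serpinb2, which encodes plasminogen activator inhibitor 2, a serpin that blocks urokinase. Its intensities on the 5 arrays were 881, 908, 913, 885 and 917 in stretched myocytes, against 98.9, 89.1, 90.9, 108 and 131 in control. The stretched arrays lay within a narrow band far above all control arrays, 8.77-fold in the mean (log2 fold change 3.13, SE 0.13, adjusted p = 4.5e-13). It also exceeded the arrays of 1 h (log2 difference 0.41, SE 0.13, adjusted p = 0.0354) and of 12 h (2.83-fold, adjusted p = 8.47e-08).

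Rgs2, a regulator that shortens signaling by Gq-coupled receptors, read 3843, 3714, 3929, 3818 and 4655 in stretched myocytes, against 1184, 1134, 1124, 1060 and 1273 in control. The groups did not overlap, replicate 5 was the highest of the stretched arrays, and the rise was 3.45-fold (log2 fold change 1.79, SE 0.069, adjusted p = 2.69e-13), or 1.73 on the log2 scale without replicate 5. Fosl1, the AP-1 subunit Fra-1, read 472, 469, 466, 438 and 452 in stretched myocytes, against 126, 130, 151, 117 and 153 in control. No stretched array came near a control array, and the rise was 3.41-fold (log2 fold change 1.77, SE 0.08, adjusted p = 2.55e-12). Aldh1a3, an enzyme that forms retinoic acid, read 782, 786, 792, 748 and 848 in stretched myocytes, against 235, 246, 214, 248 and 228 in control (log2 fold change 1.76, SE 0.063, adjusted p = 1.11e-13). The groups were again apart, and the level exceeded both neighboring times, by 1.27 over 1 h and 1.30 over 12 h on the log2 scale (adjusted p = 1.82e-11 and 1.5e-10).

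Hmox1, the heme oxygenase that degrades heme, read 3279, 3622, 3018, 2864 and 3040 in stretched myocytes, against 980.3, 984, 928, 888 and 1152 in control (log2 fold change 1.68, SE 0.082, adjusted p = 8.43e-12). Il1rl1, the receptor of interleukin-33, read 3213, 3451, 3473, 3439 and 3485 in stretched myocytes, against 1103, 1046, 1073, 1073 and 1180 in control (log2 fold change 1.64, SE 0.053, adjusted p = 4.63e-14). All stretched arrays of both genes lay above all control arrays. Among the remaining genes of the 15 largest rises, log2 fold changes were 1.69 for Olr1, the receptor of oxidized lipoprotein, 1.57 for Ripk2, a kinase of innate immune signaling, 1.52 for Reln, the secreted glycoprotein reelin, 1.51 for Slc7a11, the cystine transporter, 1.48 for Ptgs2, the inducible cyclooxygenase, 1.43 for Pkp1, a desmosomal plakophilin, 1.43 for Tnfrsf12a, the receptor of TWEAK, and 1.43 for Myc, a transcription factor of growth. Srxn1, the sulfiredoxin that restores peroxiredoxins, rose 2.83-fold. By the condition of choice, stretched and control arrays overlapped in none of them, and the adjusted p was at most 4.05e-09.

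**Figure D2:**
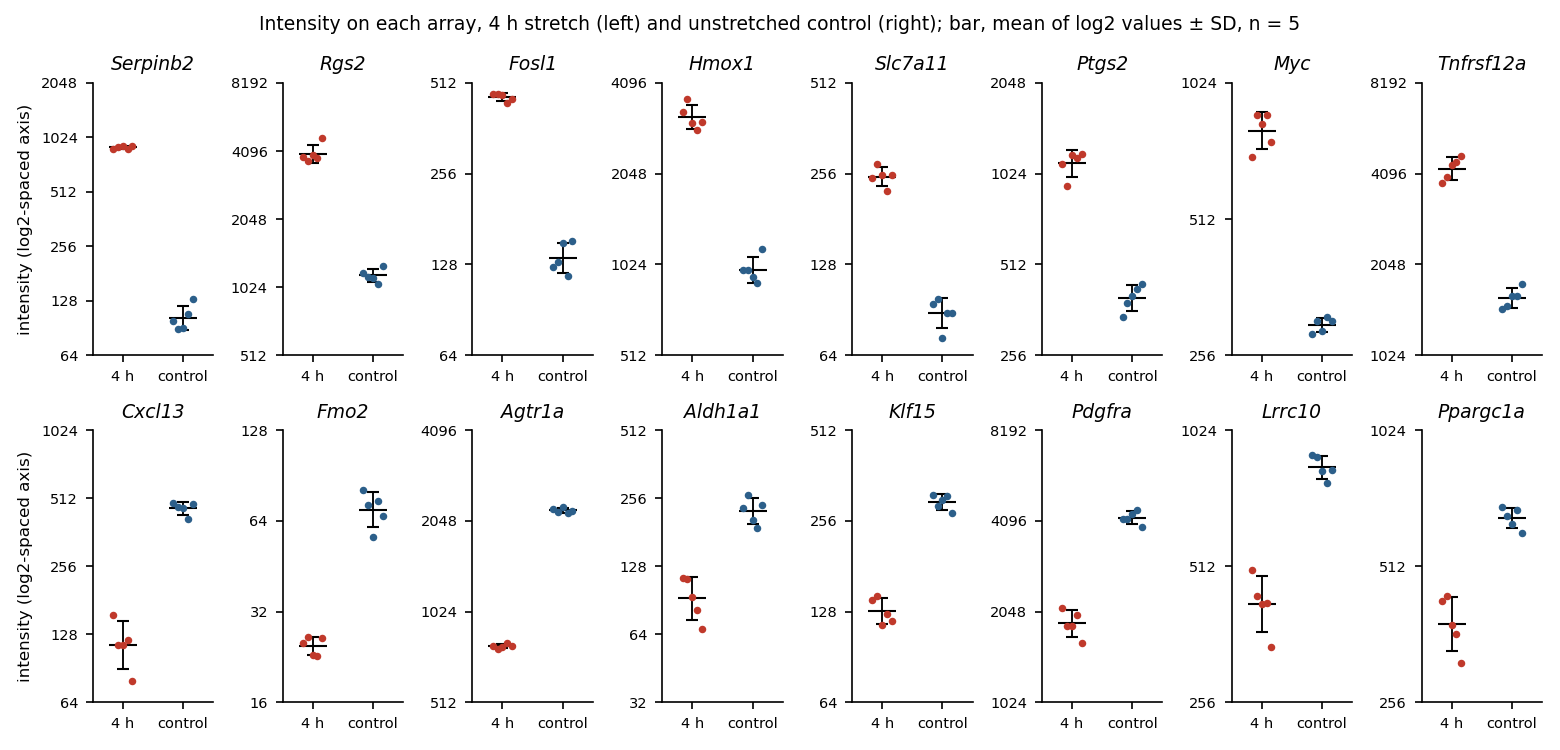
Intensity of 16 genes on each array (points, log2-spaced y axis), 4 h stretch on the left and control on the right of each panel, with the mean of the log2 values ± SD (n = 5 each) as a bar. The upper row holds genes that rose, such as Serpinb2, and the lower row genes that fell, such as Cxcl13 and Agtr1a. In each panel the groups do not overlap, which was a condition of choice for the largest rises and falls.

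Promoters of 11733 of the 14217 genes were matched by symbol in the RefSeq table of the rat genome build GRCr8, as the window from 250 bases before to 50 bases after the start of the gene. The following are shown because their genes rose and they hold the site that AP-1 binds (TGANTCA on either strand, in capitals) or the cyclic AMP response element (TGACGTCA, in capitals), each printed 5′ to 3′ on the strand of the gene. The Serpinb2 window (chr13:24055771-24056070, plus strand) holds 1 AP-1 match at position -189 from the start, that of Srxn1 (chr3:161064562-161064861, plus strand) holds 2, at -62 and -5, and that of Areg (chr14:17265592-17265891, minus strand), a ligand of the epidermal growth factor receptor described below, holds a cyclic AMP response element at -91.
Serpinb2: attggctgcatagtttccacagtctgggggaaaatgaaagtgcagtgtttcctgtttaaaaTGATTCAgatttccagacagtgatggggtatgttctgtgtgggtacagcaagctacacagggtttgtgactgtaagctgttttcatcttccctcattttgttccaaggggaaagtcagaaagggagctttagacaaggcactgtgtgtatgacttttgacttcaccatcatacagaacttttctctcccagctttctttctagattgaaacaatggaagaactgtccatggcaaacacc
Srxn1: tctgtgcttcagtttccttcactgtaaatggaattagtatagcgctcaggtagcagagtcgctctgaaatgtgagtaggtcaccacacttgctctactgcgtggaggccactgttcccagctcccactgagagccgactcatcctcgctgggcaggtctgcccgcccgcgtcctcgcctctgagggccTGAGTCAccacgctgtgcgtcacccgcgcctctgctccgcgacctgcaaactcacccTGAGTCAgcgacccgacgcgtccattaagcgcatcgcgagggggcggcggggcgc
Areg: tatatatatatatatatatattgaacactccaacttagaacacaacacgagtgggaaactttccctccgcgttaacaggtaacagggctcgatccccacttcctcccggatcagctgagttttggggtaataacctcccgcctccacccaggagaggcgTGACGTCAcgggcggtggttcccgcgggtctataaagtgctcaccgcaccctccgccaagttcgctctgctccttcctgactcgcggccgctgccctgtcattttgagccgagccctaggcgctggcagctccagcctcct
The AP-1 letters were found in 14 of 199 promoters of genes called higher at 1.5-fold (7.04%), 638 of 11733 over all genes of the array with a promoter in the table (5.44%) and 15 of 207 promoters of genes called lower (7.25%). The cyclic AMP response element was found in 17 of the 199 (8.54%), and in 335 of the 11733 (2.86%). Among the 207 promoters of genes called lower, 0.966% held it. These are counts of letters and not of bound sites.

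The gene with the deepest fall was Cxcl13, a chemokine that attracts B cells. It read 156, 114, 115, 121 and 79.2 in stretched myocytes, against 487, 469, 462, 413 and 484 in control, and fell to 0.248 of control (log2 fold change -2.01, SE 0.15, adjusted p = 3.91e-09). Replicate 5 was the lowest of the stretched arrays, and without it the log2 fold change was -1.88. Agtr1a, which encodes the type 1a angiotensin II receptor through which angiotensin II drives myocyte growth, read 791, 772, 784, 807 and 789 in stretched myocytes, against 2252, 2200, 2273, 2174 and 2215 in control. Both groups were tight and far apart, with stretched myocytes at 0.355 of control (log2 fold change -1.50, SE 0.075, adjusted p = 1.17e-11). The level was below that at 1 h (log2 difference -0.97, SE 0.075, adjusted p = 2.22e-08) and above that at 12 h (log2 difference 0.83, SE 0.075, adjusted p = 2.3e-07).

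Fmo2, a flavin-containing monooxygenase, read 25.2, 26.4, 22.9, 22.9 and 26.2 in stretched myocytes, against 81, 72.6, 56.7, 74.5 and 66.4 in control (log2 fold change -1.50, SE 0.14, adjusted p = 8.09e-08). Klf15, a zinc finger factor that restrains cardiac growth and favours the use of lipids and amino acids, read 140.4, 144, 116, 126 and 119.6 in stretched myocytes, against 312, 287, 300.1, 309.6 and 272 in control (log2 fold change -1.20, SE 0.081, adjusted p = 8.41e-10). Pdgfra, the platelet-derived growth factor receptor of fibroblasts, read 2110, 1841, 1838, 2001 and 1609 in stretched myocytes, against 4170, 4162, 4315, 4457 and 3911 in control (log2 fold change -1.17, SE 0.073, adjusted p = 2.68e-10). By the same condition of choice, none of these 3 genes had overlapping groups. Cdkn1c, the cell cycle inhibitor p57, fell to 0.406 of control (log2 fold change -1.30, SE 0.085, adjusted p = 5.16e-10), and Aldh1a1, a retinaldehyde dehydrogenase like the induced Aldh1a3, to 0.41 (log2 fold change -1.28, SE 0.14, adjusted p = 3.41e-07). The other genes of the 15 largest falls were Plcxd3, a phospholipase-like protein (log2 fold change -1.37), Steap4, a metalloreductase (-1.35), Lnx1, a ubiquitin ligase of Numb (-1.28), Zc3h6, a zinc finger protein (-1.27), Fam13c (-1.17), RGD1309362 (-1.15), Efhd1, a mitochondrial calcium-binding protein (-1.14), and Dhrs7c, a reductase of the sarcoplasmic reticulum (-1.14), with an adjusted p of at most 1.14e-06 each.

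Members of 43 lists of genes, written from general knowledge but with earlier results of these data known, were then counted. As background, 36.3% of all 14217 genes passed an adjusted p of 0.05, 17.1% higher and 19.2% lower in stretched myocytes. Without replicate 5 of the 4 h group no list gained or lost more than 2 members in either direction.

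**Figure D3:**
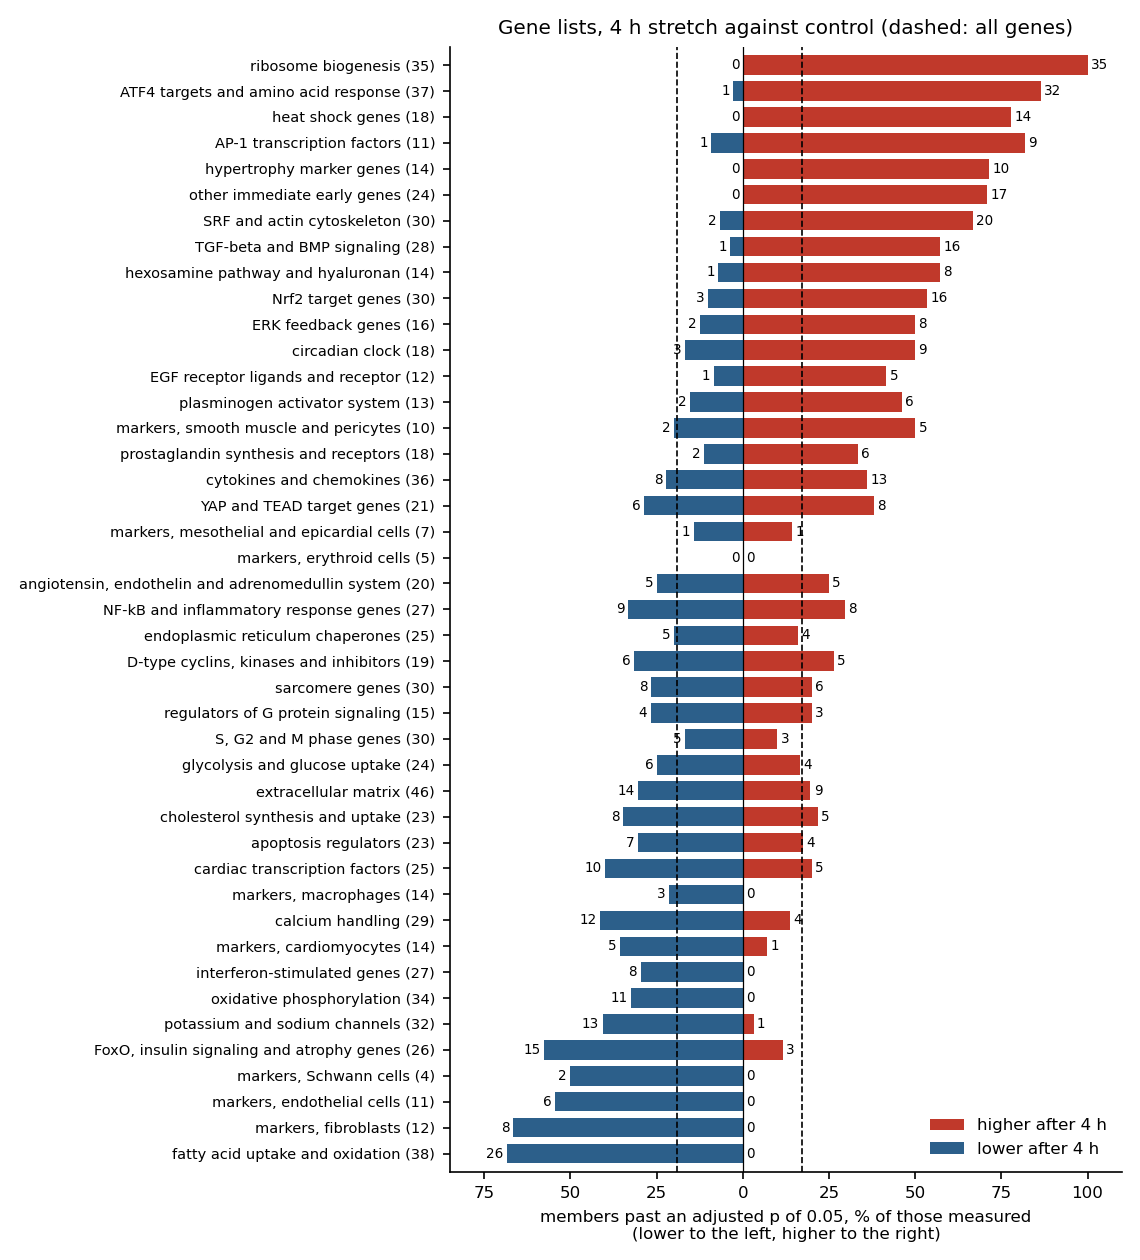
Share of each list's measured members (number in parentheses) that passed an adjusted p of 0.05 in 4 h stretch against control, to the right for higher and to the left for lower, with the number of genes at the end of each bar and dashed lines at the shares over all genes (17.1% and 19.2%). Ribosome biogenesis is at the top with 35 of 35 higher, and fatty acid uptake and oxidation at the bottom with 26 of 38 lower.

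The list with the highest share was ribosome biogenesis, the nucleolar proteins and RNA polymerase I subunits that transcribe, modify and assemble ribosomal RNA. All 35 measured members were higher in stretched myocytes, 17 of them by at least 1.5-fold, and their median log2 fold change was 0.57. The summed intensity of the list was 31410 to 32840 on the stretched arrays and 22280 to 22940 on the control arrays. Heatr1, a factor of rRNA transcription and processing, read 309, 317, 299.6, 314 and 276 in stretched myocytes, against 147, 162, 134, 165 and 141 in control (log2 fold change 1.02, SE 0.07, adjusted p = 1.06e-09). Rrp12, needed for export of ribosomal subunits, read 409, 449.9, 418, 422 and 426 in stretched myocytes, against 198, 213, 212, 229 and 208 in control (log2 fold change 1.00, SE 0.053, adjusted p = 2.47e-11). The groups overlapped in neither gene. Gar1, a protein of the snoRNPs that modify uridines, rose 1.88-fold, Ddx21, a nucleolar RNA helicase, 1.78-fold, Rrs1, a factor of the large subunit, 1.75-fold, and Gnl3, the GTPase nucleostemin, 1.71-fold (adjusted p at most 2.76e-08). Wdr12, a partner of Bop1 and Pes1 in the assembly of the large subunit, rose 1.58-fold (log2 fold change 0.66, SE 0.052, adjusted p = 6.83e-09), Bop1 1.58-fold and Pes1 1.33-fold. Polr1b, a subunit of RNA polymerase I, rose 1.53-fold. The smallest rises were those of Dkc1 and Rrp1, 1.19-fold and 1.14-fold.

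Of these 35 genes, 34 were higher at 4 h than at 1 h in the direct comparison of the times, in which 8.64% of all genes were higher at 4 h. The member that missed the threshold was Nhp2 (log2 difference 0.18, adjusted p = 0.0601). Against 12 h, 4 were higher, 1 was lower and 30 did not pass, with 6.22% of all genes higher and 5.85% lower. Against control, the log2 difference of Heatr1 was 0.41 at 1 h and 0.87 at 12 h, and that of Rrp12 0.44 at 1 h and 0.73 at 12 h.

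**Figure D4:**
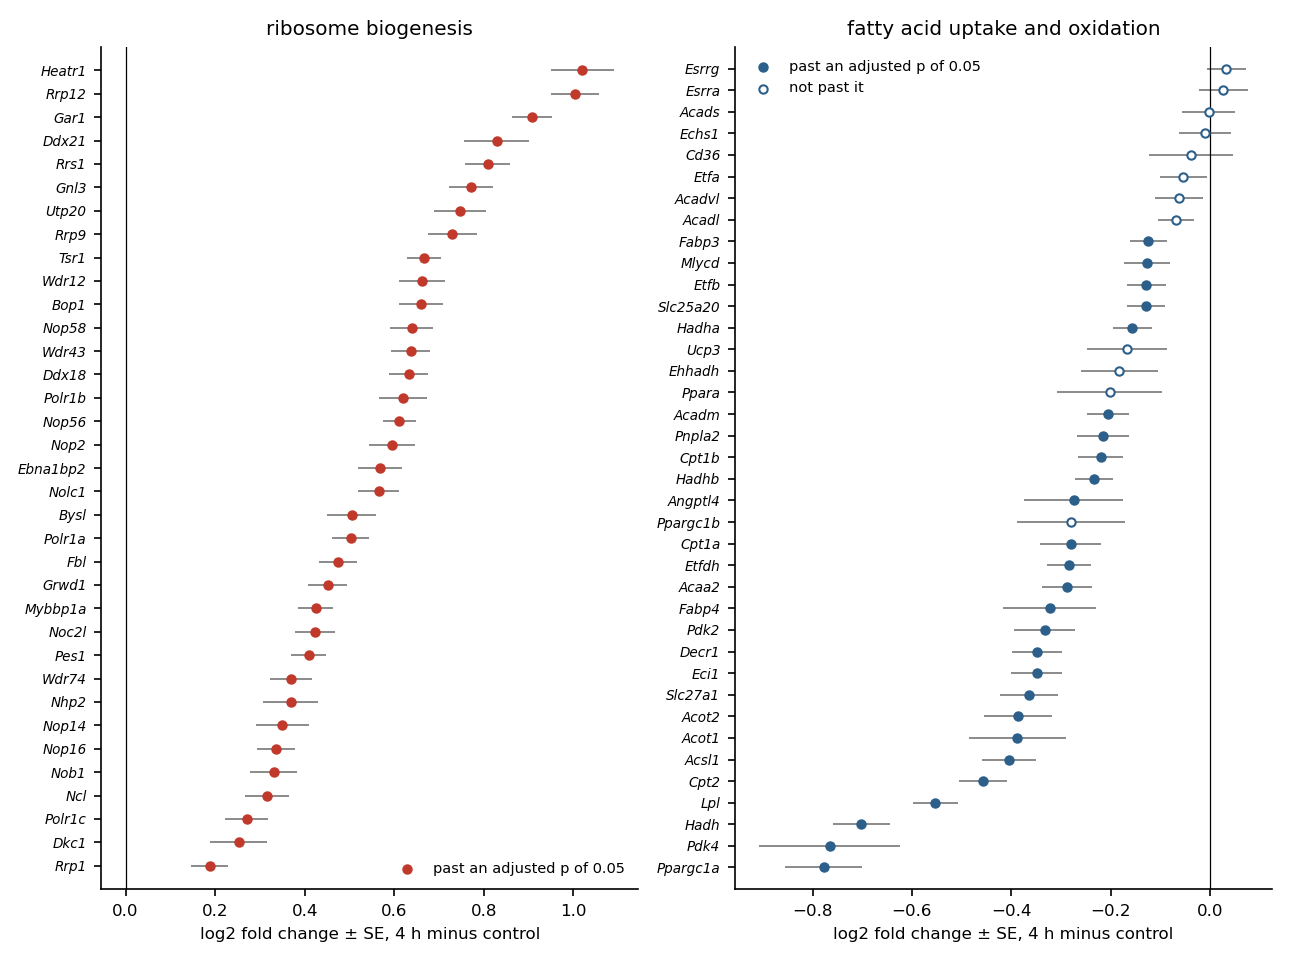
Log2 fold change ± SE of each measured member (y axis) of ribosome biogenesis on the left and of fatty acid uptake and oxidation on the right, 4 h stretch minus control (n = 5 arrays per group), filled where the adjusted p was under 0.05. The left panel runs from 0.19 for Rrp1 to 1.02 for Heatr1 with all 35 filled, and the right panel reaches down to -0.78 for Ppargc1a with 26 of 38 filled.

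The promoters of these genes were searched for the E-box that Myc and related proteins bind (CACGTG, a palindrome that reads the same on both strands). It was found in 13 of the 32 members with a promoter in the table (40.6%), in 37 of 199 genes called higher at 1.5-fold (18.6%), in 5.8% of 207 genes called lower and in 1046 of 11733 genes (8.92%). The 199 include members of the list, such as Gnl3, Utp20 and Ddx18, so these shares are not separate. The list was written with earlier results of these data known. These are counts of letters, and whether Myc acts on these genes was not tested. The promoters of Gnl3 (chr16:6219733-6220032, minus strand, E-box at -25), Utp20, a component of the small subunit processome (chr7:25102800-25103099, minus strand, E-box at -127), and Ddx18, a nucleolar helicase (chr13:35295923-35296222, minus strand, E-box at -13), are shown as examples, with the E-box in capitals.
Gnl3: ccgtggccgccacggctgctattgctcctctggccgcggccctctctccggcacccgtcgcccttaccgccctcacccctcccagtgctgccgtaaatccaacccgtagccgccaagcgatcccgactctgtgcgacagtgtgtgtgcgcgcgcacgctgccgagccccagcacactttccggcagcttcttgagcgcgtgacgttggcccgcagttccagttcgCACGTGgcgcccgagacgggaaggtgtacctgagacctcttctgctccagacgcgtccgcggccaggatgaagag
Utp20: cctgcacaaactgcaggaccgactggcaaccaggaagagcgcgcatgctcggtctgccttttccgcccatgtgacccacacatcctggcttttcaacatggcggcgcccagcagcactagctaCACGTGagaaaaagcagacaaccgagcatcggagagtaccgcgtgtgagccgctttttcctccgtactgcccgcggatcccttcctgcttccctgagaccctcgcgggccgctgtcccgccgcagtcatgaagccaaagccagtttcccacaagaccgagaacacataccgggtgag
Ddx18: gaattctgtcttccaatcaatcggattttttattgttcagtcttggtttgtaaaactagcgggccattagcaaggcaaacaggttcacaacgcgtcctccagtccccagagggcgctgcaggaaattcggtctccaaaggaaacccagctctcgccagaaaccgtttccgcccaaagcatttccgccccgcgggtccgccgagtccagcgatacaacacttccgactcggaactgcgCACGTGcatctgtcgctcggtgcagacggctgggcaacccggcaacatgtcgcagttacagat
Utp20 rose 1.68-fold (log2 fold change 0.75, SE 0.058, adjusted p = 6.19e-09) and Ddx18 1.55-fold (log2 fold change 0.63, SE 0.043, adjusted p = 8.48e-10). Myc itself read 703, 869, 829.5, 872 and 757 in stretched myocytes, against 285, 305, 289, 310.2 and 305 in control, all stretched arrays above all control arrays (log2 fold change 1.43, SE 0.058, adjusted p = 4.5e-13), and was lower at 4 h than at 1 h (log2 difference -0.32, SE 0.058, adjusted p = 0.000843).

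Genes of amino acid supply rose as well. They were counted in 1 list of the amino acid response and of targets of ATF4, the factor that answers amino acid shortage. Of its 37 measured genes, 32 were higher, 1 was lower and 4 did not pass, with a median log2 fold change of 0.37. The transporters Slc7a5 (1.98-fold, adjusted p = 7.1e-07), which carries large neutral amino acids, and Slc7a1 (1.93-fold, adjusted p = 1.01e-10), which carries arginine and lysine, followed Slc7a11. The serine and one-carbon enzymes Psph, Mthfd2, Shmt2 and Psat1 rose 1.66-, 1.65-, 1.58- and 1.52-fold. The tRNA synthetases measured in the list (Cars1, Nars1, Tars1, Yars1, Iars1, Aars1, Eprs1, Sars1, Mars1, Wars1 and Lars1) all rose, by log2 fold changes from 0.17 for Lars1 to 0.67 for Cars1, but Eprs1 did not pass as the mean of its probe sets (adjusted p = 0.107). Atf4 itself rose 1.48-fold (log2 fold change 0.57, SE 0.046, adjusted p = 1.06e-08). Ddit3, which encodes the stress factor CHOP, was the member that fell (log2 fold change -0.17, SE 0.05, adjusted p = 0.0131), and Trib3 and Sesn2, 2 other stress targets, had log2 fold changes of 0.07 and 0.06 and did not pass. In the direct comparison with 1 h, 22 members were higher at 4 h and 1 was lower, beside 8.64% and 8.89% of all genes. Chaperones of the endoplasmic reticulum did not follow, with 4 of 25 higher (2 without 4 h replicate 3) and 5 lower. Hspa5, the main such chaperone, was at 0.913 of control (log2 fold change -0.13, SE 0.038, adjusted p = 0.0122), and did not pass with each array centred on its median or the 2 groups fitted alone (limma, adjusted p = 0.0539 and 0.0512). Of 18 heat shock genes, 14 were higher and 0 lower, led by Hspa1a (1.57-fold) and Hsph1 (1.5-fold), and their median log2 fold change was 0.15.

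Immediate early genes were still raised at 4 h but mostly below their level at 1 h. Of 11 AP-1 genes, which encode the Fos, Jun and related subunits, 9 were higher than in control, 1 (Batf) was lower, and 7 were lower at 4 h than at 1 h, where 8.89% of all genes were lower. Fos read 492, 424, 469, 389 and 379 in stretched myocytes, against 320.2, 265, 273, 302 and 278 in control (log2 fold change 0.58, SE 0.068, adjusted p = 1.44e-06), with no overlap. Its log2 difference from 1 h was -0.65 (adjusted p = 1.62e-06). Another, dimmer probe set of Fos had a log2 fold change of 0.06 against control and did not pass (limma, adjusted p = 0.651). Atf3, a stress-induced member of the family, was 1.61-fold above control and Fosb 1.55-fold, and their log2 differences from 1 h were -2.42 and -2.37. That of Fosl1 was -0.45 (adjusted p = 0.00065), and at 4 h Fosl1 was the highest of the list relative to control. Of 24 other immediate early genes, 17 were higher than in control and 0 were lower (1 without 4 h replicate 1), while 18 were lower than at 1 h. Myc, Bhlhe40, a transcriptional repressor of the clock (2.28-fold), Ccn1, a matricellular protein (2.07-fold), and Ier3 (1.94-fold) rose most. Egr1, the zinc finger factor of the early response, was 1.3-fold above control and Egr2 1.69-fold. The orphan receptors Nr4a1 and Nr4a3 were 1.25- and 1.26-fold above control, after log2 differences from control at 1 h of 2.58 and 2.41. Nr4a3 at 4 h lost its call without 4 h replicate 2 or control replicate 4 (limma, adjusted p = 0.0648 and 0.0676).

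Ligands of the epidermal growth factor receptor rose at 4 h. Areg (amphiregulin) read 255, 249, 269, 238 and 299 in stretched myocytes, against 112, 103, 93.3, 98.2 and 105 in control. Ereg (epiregulin) read 242, 204, 239.5, 254 and 214 in stretched myocytes, against 90.7, 90.9, 77.1, 94.6 and 131 in control. In both, all stretched arrays exceeded all control arrays, 2.56-fold (log2 fold change 1.35, SE 0.089, adjusted p = 5.1e-10) and 2.41-fold (log2 fold change 1.27, SE 0.1, adjusted p = 1.03e-08). Hbegf, the heparin-binding ligand, rose 2.15-fold and Tgfa 2.03-fold. Hbegf was below its level at 1 h and Tgfa above it (log2 differences -0.48 and 0.34, adjusted p = 0.00163 and 0.00861). The receptor gene Egfr was at 0.656 of control (log2 fold change -0.61, SE 0.12, adjusted p = 0.000518). Of 12 genes of this list, 5 were higher, 1 was lower (2 without 4 h replicate 1) and 6 did not pass. Of 16 genes of feedback on the kinase ERK, 8 were higher and 2 lower. Dusp2, Dusp6 and Dusp10, phosphatases that switch off mitogen-activated protein kinases, rose 1.93-, 1.88- and 1.7-fold, whereas Spry1, an inhibitor of receptor signaling, fell to 0.688 of control (log2 fold change -0.54, SE 0.059, adjusted p = 5.98e-07).

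Of 30 targets of Nrf2, the factor that answers oxidative stress, 16 were higher, 3 were lower and 11 did not pass. Besides Hmox1, Slc7a11 and Srxn1, the largest rise was that of Akr1b8, an aldo-keto reductase, which read 3508, 3265, 3071, 2766 and 3421 in stretched myocytes, against 1337, 1333, 1080, 1203 and 1497 in control, with no overlap (log2 fold change 1.32, SE 0.082, adjusted p = 2.45e-10). Gclc, the catalytic subunit of the enzyme that limits glutathione synthesis, rose 1.93-fold, Txnrd1, a thioredoxin reductase, 1.8-fold, Gsr, which regenerates glutathione, 1.54-fold, and Nqo1, a quinone reductase, 1.27-fold (adjusted p at most 0.000158). Abcc4, an efflux pump, was at 0.722 of control (log2 fold change -0.47, SE 0.098, adjusted p = 0.000835). At 4 h, 25 of the 30 were below their level at 12 h and 1 above it, beside 5.85% and 6.22% of all genes. Slc7a11 differed from 12 h by -1.27 and Akr1b8 by -1.46 (log2). The antioxidant element core (TGACNNNGC, which can contain an AP-1 site) was found in 5 of 28 promoters of the list (17.9%), beside 14.4% over all genes.

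**Figure D5:**
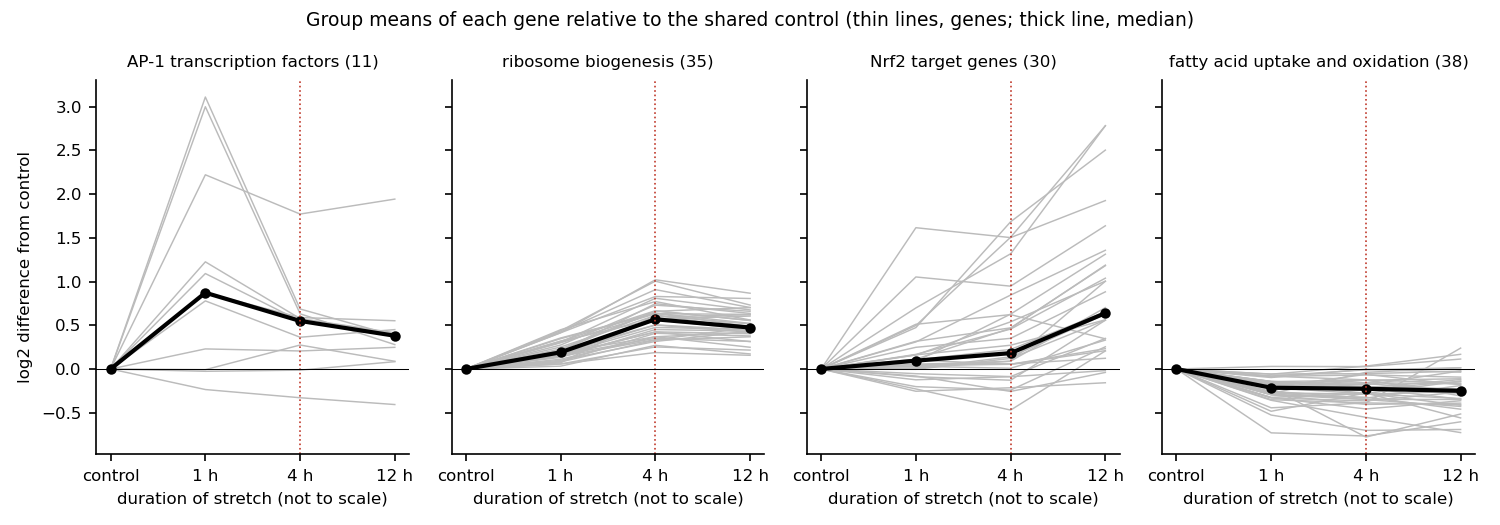
Group means of each gene relative to the control mean (log2 difference, y axis) for control and for 1, 4 and 12 h of stretch (x axis, not to scale), in 4 lists, with genes as thin lines and their median as a thick line (n = 5 arrays per group, the control is shared by all times). At 4 h, marked by the dotted line, the median is 0.55 for AP-1 genes, 0.57 for ribosome biogenesis, 0.18 for Nrf2 targets and -0.23 for fatty acid genes.

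Hypertrophy marker genes rose in part. Of 14 measured, 10 were higher and 0 lower. Tnfrsf12a read 3808, 3992, 4381, 4491 and 4689 in stretched myocytes, against 1461, 1486, 1606, 1613 and 1768 in control. Lmcd1, a cofactor of calcineurin signaling, read 1094, 1246, 1320, 1335 and 1340 in stretched myocytes, against 469, 446, 467, 515 and 514 in control. The groups did not overlap in either gene, and Lmcd1 rose 2.62-fold (log2 fold change 1.39, SE 0.064, adjusted p = 2.92e-12) and was above 1 h and 12 h (log2 differences 0.39 and 1.16, adjusted p = 0.000282 and 3.75e-10). Rcan1, a calcineurin target, rose 1.72-fold and Acta1, skeletal alpha-actin of the fetal program, 1.49-fold. Nppb, which encodes B-type natriuretic peptide, read 14140, 15500, 15910, 15950 and 15700 in stretched myocytes, against 12180, 11560, 12260, 12210 and 12140 in control (log2 fold change 0.35, SE 0.039, adjusted p = 6.97e-07). Replicate 1 was the lowest stretched array and still above all control arrays. Nppa, the atrial natriuretic peptide gene, was 1.17-fold above control (log2 fold change 0.22, SE 0.035, adjusted p = 4.27e-05). Myh7, the fetal myosin heavy chain, and Ankrd1 had log2 fold changes of 0.01 and 0.08 without passing (adjusted p = 0.862 and 0.159).

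Of 30 targets of serum response factor and genes of the actin cytoskeleton, 20 were higher, 2 were lower and 8 did not pass. Actn1, the actin crosslinker alpha-actinin 1, rose 1.69-fold (log2 fold change 0.76, SE 0.058, adjusted p = 4.44e-09), Flnc, filamin C, 1.52-fold, Tubb6, a beta-tubulin, 1.52-fold, Tagln, transgelin, 1.45-fold, and Acta2, smooth muscle alpha-actin, 1.42-fold. Mylk, myosin light chain kinase, fell to 0.617 of control (log2 fold change -0.70, SE 0.065, adjusted p = 6.34e-08), and Srf itself had a log2 fold change of 0.09 (adjusted p = 0.21). The CArG box, the element of serum response factor, was found in 6 of 26 promoters of this list (23.1%), beside 158 of 11733 over all genes (1.35%). The list was written as targets of that factor, so this share is no independent evidence, and the box was found in 1 of 199 promoters of genes called higher (0.503%) and 2 of 207 of genes called lower (0.966%). The promoter of Acta1 (chr19:68784145-68784444, minus strand) is shown as an example, with its CArG box at -94 in capitals.
Acta1: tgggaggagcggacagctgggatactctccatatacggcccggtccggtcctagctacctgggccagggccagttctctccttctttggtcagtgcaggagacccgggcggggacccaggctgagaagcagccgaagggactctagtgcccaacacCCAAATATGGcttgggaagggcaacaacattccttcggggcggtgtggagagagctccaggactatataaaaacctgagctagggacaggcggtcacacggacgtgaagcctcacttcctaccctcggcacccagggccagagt
Among 21 targets of YAP and TEAD, 8 were higher and 6 lower, with Ccn1 and Fjx1 (1.83-fold) highest and Dlc1, a regulator of small GTPases (0.659 of control), lowest. Of 30 sarcomere genes, 6 were higher and 8 lower, beside 17.1% and 19.2% of all genes. Their median log2 fold change was -0.01, with Tcap, the titin cap (1.38-fold), and Csrp3, a Z-disc LIM protein (1.2-fold), on the higher side. Lrrc10, a heart-restricted protein that binds actin, read 503, 439.6, 422, 424 and 339.5 in stretched myocytes, against 903, 892, 833, 782 and 834 in control. It fell to 0.498 of control with no overlap (adjusted p = 2.42e-08), and Myl7, the atrial light chain, to 0.791. Myh6, the adult myosin heavy chain, was at 0.875 of control (log2 fold change -0.19, SE 0.039, adjusted p = 0.000621).

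Of 25 cardiac transcription factors, 5 were higher and 10 lower, beside 17.1% and 19.2% of all genes. Nfatc1, the calcineurin-dependent factor, rose 1.57-fold (log2 fold change 0.65, SE 0.048, adjusted p = 2.68e-09), and Gata4, a regulator of hypertrophic genes, was 1.14-fold above control (adjusted p = 0.00643). Beside Klf15, Irx4, the ventricular homeobox factor, fell to 0.542 of control (log2 fold change -0.88, SE 0.086, adjusted p = 1.22e-07) and Hopx, a homeodomain-only cofactor, to 0.642 (log2 fold change -0.64, SE 0.086, adjusted p = 7.7e-06).

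Genes of fatty acid use fell without exception in direction among those called. Of 38 measured, 26 were lower, 0 were higher and 12 did not pass, and the median log2 fold change was -0.23. The number of lower genes was 21 when each array was centred on its median and 23 when the 2 groups were fitted alone. Ppargc1a, the coactivator PGC-1alpha of mitochondrial genes, read 428, 441, 380.2, 362 and 313 in stretched myocytes, against 692, 663, 636, 680.5 and 608 in control. Replicate 5 was the lowest stretched array and no stretched array reached a control array (log2 fold change -0.78, SE 0.077, adjusted p = 1.44e-07), and without replicate 5 the log2 fold change was -0.71. Pdk4, the kinase that blocks entry of glucose carbon into the citric acid cycle, fell to 0.588 of control (log2 fold change -0.77, SE 0.14, adjusted p = 0.000259), Hadh, an enzyme of beta-oxidation, to 0.615 (log2 fold change -0.70, SE 0.058, adjusted p = 1.42e-08), and Lpl, lipoprotein lipase, to 0.682 (log2 fold change -0.55, SE 0.045, adjusted p = 1.05e-08). The carnitine palmitoyltransferases Cpt2, Cpt1a and Cpt1b were at 0.729, 0.823 and 0.859 of control, and the mean of the probe sets of Cpt1a did not pass (log2 fold change -0.13, adjusted p = 0.199). The fatty acid transporter Cd36 did not pass (log2 fold change -0.04, adjusted p = 0.799). Against 1 h only 2 of the 38 were lower at 4 h, Ppargc1a and Lpl, and 0 were higher. Over all genes, 8.89% were lower than at 1 h and 8.64% higher. Of 34 oxidative phosphorylation genes, 11 were lower and 0 higher, with a median log2 fold change of -0.06, and the number of lower genes was 7 when each array was centred on its median or the 2 groups were fitted alone. Of 24 genes of glycolysis and glucose uptake, 4 were higher and 6 lower, beside 17.1% and 19.2% of all genes. The higher ones included the transporter Slc2a3 (1.44-fold) and hexokinase Hk2 (1.39-fold). The lower ones included Aldoc (0.656 of control) and Pgam2, the muscle phosphoglycerate mutase (0.713). In cholesterol metabolism 5 of 23 were higher (2 without control replicate 2) and 8 lower, led by Abca1, the cholesterol exporter, at 0.477 of control (log2 fold change -1.07, SE 0.081, adjusted p = 3.91e-09).

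Of 26 genes of FoxO and insulin signaling, 15 were lower and 3 higher. Sesn1, a sestrin of the stress response (0.626 of control), Ccng2, a FoxO-dependent cyclin (0.68), and Igf1, insulin-like growth factor 1 (0.687), fell, and the insulin receptor gene Insr rose 1.26-fold (log2 fold change 0.33, SE 0.09, adjusted p = 0.00759). Genes of the circadian clock shifted as well, 9 of 18 higher and 3 lower. Bmal1, a core activator of the clock, rose 1.69-fold (log2 fold change 0.76, SE 0.056, adjusted p = 3.11e-09) and Noct, a rhythmic phosphatase, 2.21-fold (log2 fold change 1.15, SE 0.057, adjusted p = 9.25e-12), while Per3, a period gene, fell to 0.627 (log2 fold change -0.67, SE 0.071, adjusted p = 3.6e-07) and Dbp, a clock output gene, to 0.697 (log2 fold change -0.52, SE 0.05, adjusted p = 1e-07).

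Calcium handling and ion channel genes were mostly lower where they passed. Of 29 calcium genes, 12 were lower and 4 higher. Hrc, which binds calcium within the sarcoplasmic reticulum, was reduced to 0.647 of the control level (log2 fold change -0.63, SE 0.065, adjusted p = 2.77e-07). Cacna1c, which forms the L-type channel for calcium entry, was reduced to 0.752 (log2 fold change -0.41, SE 0.064, adjusted p = 4.27e-05), and Atp2a2, the calcium pump SERCA2, to 0.875 (log2 fold change -0.19, SE 0.037, adjusted p = 0.000409). Another probe set of Cacna1c had a log2 fold change of 0.10 and did not pass (limma, adjusted p = 0.387). The probe set of Atp2a2 used is the brightest of several, and the others ranged from -0.56 to -0.02 in log2 fold change. Ryr2, the calcium release channel, did not pass (log2 fold change -0.11, adjusted p = 0.131), though the mean of its probe sets did (log2 fold change -0.37, adjusted p = 0.0017). Of 32 potassium and sodium channel genes, 13 were lower and 1 was higher. Scn4b, a sodium channel beta subunit, read 317, 301, 219, 240.4 and 201 in stretched myocytes, against 531, 475, 450.2, 454 and 505 in control (log2 fold change -0.94, SE 0.1, adjusted p = 4.19e-07). All stretched arrays lay below all control arrays, replicate 5 lowest. Kcnj8, the pore of a potassium channel gated by ATP, fell to 0.594 of control, Scn7a, a sodium channel, to 0.607, and Kcnd3, a channel of the transient outward current, to 0.619. Scn3b, another beta subunit, was the gene that rose (1.49-fold, adjusted p = 2.77e-07).

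Vasoactive systems had called members in both directions. Of 20 genes, 5 were higher and 5 lower, beside 17.1% and 19.2% of all genes. Their median log2 fold change was -0.04. Bdkrb2, the bradykinin B2 receptor, read 308, 330.1, 345, 328 and 350.4 in stretched myocytes, against 131, 116, 136, 166 and 148 in control (log2 fold change 1.26, SE 0.082, adjusted p = 4.35e-10). Ramp3, which turns the calcitonin-like receptor into an adrenomedullin receptor, read 202, 196, 273, 269 and 227 in stretched myocytes, against 89.5, 94, 98.4, 113 and 105 in control (log2 fold change 1.22, SE 0.099, adjusted p = 1.08e-08). No stretched array of either overlapped the control arrays. Adm, the vasodilator adrenomedullin, rose 1.72-fold (log2 fold change 0.79, SE 0.066, adjusted p = 1.49e-08), above 1 h and below 12 h (log2 differences 0.49 and -0.45), and Calcrl, its receptor partner, 1.26-fold. Ramp2, the other partner for adrenomedullin, fell to 0.723 of control (log2 fold change -0.47, SE 0.077, adjusted p = 7.19e-05), and Agtrap, which binds the angiotensin receptor, to 0.729 (log2 fold change -0.46, SE 0.089, adjusted p = 0.000466). Edn1, which encodes endothelin-1, read 92.4, 105, 110.4, 108 and 84.5 in stretched myocytes, against 96.5, 107, 113, 102 and 105 in control. The groups overlapped and the gene did not pass (log2 fold change -0.07, SE 0.071, adjusted p = 0.538). Xdh, which encodes xanthine dehydrogenase and is in none of the lists, fell to 0.571 of control (log2 fold change -0.81, SE 0.071, adjusted p = 2.89e-08). Among 15 regulators of G protein signaling, 3 were higher and 4 lower, with Rgs4 1.39-fold above control and Rgs5, a marker of pericytes, at 0.702.

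Of 28 genes of TGF-beta and BMP signaling, 16 were higher and 1 was lower. Gdf15, a stress-induced ligand, rose 2.51-fold (log2 fold change 1.33, SE 0.11, adjusted p = 1.84e-08) and Inhba, the activin A subunit, 2.42-fold (log2 fold change 1.27, SE 0.069, adjusted p = 2.98e-11). Bmp2, a bone morphogenetic protein, read 999, 1052, 1088, 1046 and 1136 in stretched myocytes, against 586, 596, 617, 618 and 617 in control (log2 fold change 0.81, SE 0.051, adjusted p = 3.15e-10). Its groups were far apart relative to their spread. Tgfb2 rose 1.84-fold (log2 fold change 0.88, SE 0.068, adjusted p = 4.82e-09) and Tgfb1 1.58-fold (log2 fold change 0.66, SE 0.07, adjusted p = 4.17e-07). Grem1, a BMP antagonist, fell to 0.721 of control (log2 fold change -0.47, SE 0.089, adjusted p = 0.000304). Of 46 members of the extracellular matrix list, 9 were higher and 14 lower, beside 17.1% and 19.2% of all genes. With the mean of the probe sets of a gene 14 were higher, and with arrays centred on their median 11 were higher and 11 lower. Fibroblast marker sums were lower, as given above, and their part in these counts was not tested. Tnc, tenascin C, an adhesion-modulating protein of remodeling tissue, read 2200, 2359, 2275, 2409 and 2467 in stretched myocytes, against 885, 894, 874, 893 and 896 in control (log2 fold change 1.40, SE 0.051, adjusted p = 1.11e-13). All stretched arrays lay above the control arrays, and the level was above 1 h and 12 h (log2 differences 0.92 and 0.39). Col12a1 rose 1.57-fold, the proteoglycan gene Vcan 1.53-fold and Spp1, osteopontin, 1.42-fold (log2 fold change 0.50, SE 0.077, adjusted p = 3.51e-05). Adamts5, an aggrecanase, fell to 0.473 of control (log2 fold change -1.08, SE 0.083, adjusted p = 4.81e-09) and Adamts15 to 0.601. The fibrillar collagen genes Col1a1 and Col1a2 had log2 fold changes of 0.03 and 0.04 and did not pass (adjusted p = 0.74 and 0.536).

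Around the hyaluronan receptor, 8 of 14 genes of the hexosamine pathway and hyaluronan were higher and 1 was lower (2 without control replicate 5). Cd44, that receptor, rose 1.93-fold (log2 fold change 0.95, SE 0.056, adjusted p = 1.15e-10), Gfpt2, which starts hexosamine synthesis, 1.79-fold, and Has2, a hyaluronan synthase, 1.4-fold. Ogt, which attaches the sugar to proteins, was at 0.825 of control, and the mean of its probe sets did not pass (log2 fold change -0.07, adjusted p = 0.408). A probe set that reads Uap1 and Uap1l2 together, enzymes of the last step to the hexosamine donor, read 4227, 5717, 4913, 5422 and 4640 in stretched myocytes, against 965, 948, 1090, 1077 and 919 in control, with no overlap (log2 fold change 2.31, SE 0.08, adjusted p = 9.9e-14). In the plasminogen activator system, 6 of 13 were higher and 2 lower (4 without 4 h replicate 2). After Serpinb2 came Plaur, the urokinase receptor (2.45-fold, adjusted p = 7.41e-10), and Tfpi2, a protease inhibitor (1.82-fold, adjusted p = 3.56e-07), and Thbd, thrombomodulin, was at 0.705 of control (log2 fold change -0.50, SE 0.1, adjusted p = 0.000571). Of 18 genes of prostaglandin synthesis and receptors, 6 were higher and 2 lower. Ptgs2 read 1099, 932, 1180, 1153 and 1195 in stretched myocytes, against 342, 381, 401, 425 and 440 in control, with every stretched array above the control arrays. Ptges, the synthase of prostaglandin E2 that often accompanies it, fell to 0.607 of control (log2 fold change -0.72, SE 0.078, adjusted p = 4.91e-07).

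Of 36 cytokines and chemokines, 13 were higher and 8 lower, beside 17.1% and 19.2% of all genes. Il6 read 85.6, 84.2, 92.2, 119 and 82.7 in stretched myocytes, against 51.2, 40.6, 44.5, 60.5 and 51.7 in control. Intensities were low in both groups and did not overlap. Il6 rose 1.86-fold (log2 fold change 0.90, SE 0.14, adjusted p = 3.39e-05) and was lower than at 1 h and at 12 h (log2 differences -1.14 and -0.71, adjusted p = 9.72e-06 and 0.00173). Clcf1, a cytokine of the same family, rose 1.76-fold, and the neutrophil and monocyte chemokines Cxcl2, Ccl7 and Ccl2 rose 1.58-, 1.57- and 1.39-fold. Cxcl11, Il34 and Cxcl12 fell to 0.484, 0.487 and 0.562 of control. The cytokine genes Tnf and Il1b had log2 fold changes of 0.02 and -0.03 and did not pass. Of 27 genes of NF-kB signaling and inflammation, 8 were higher and 9 lower, and beside Olr1, Il1rl1 and Ptgs2, Tnfaip3, the inhibitor A20, rose 1.2-fold, while Vcam1, an adhesion molecule, fell to 0.531 of control (log2 fold change -0.91, SE 0.089, adjusted p = 1.2e-07). Macrophage markers, whose part in these lists was not tested, summed to 1743 to 1970 at 4 h and 1883 to 2232 in control. Interferon-stimulated genes included 0 higher and 8 lower of 27, with Rtp4 (0.569 of control) and Usp18 (0.657) lowest. Usp18 lost its call without control replicate 5 and without each of replicates 1, 3 and 4 of the 4 h group (limma, adjusted p = 0.0505 to 0.0692). The antiviral Mx1 and Isg15 did not pass (log2 fold changes -0.07 and -0.14).

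Cell cycle and survival genes had called members in both directions, beside 17.1% of all genes higher and 19.2% lower. Of 19 genes of D-type cyclins, their kinases and inhibitors, 5 were higher and 6 lower (3 and 6 without replicate 5 of the 4 h group, and 3 higher without control replicate 3 or 5). Ccnd1, cyclin D1, rose 1.5-fold (log2 fold change 0.59, SE 0.049, adjusted p = 1.38e-08), while Cdkn1c fell as given above. Of 30 genes of S, G2 and M phase, 3 were higher (1 without control replicate 5) and 5 lower (2 without control replicate 3 or 4), both below the shares over all genes. Mki67, the proliferation marker, was at 0.795 of control (log2 fold change -0.33, SE 0.071, adjusted p = 0.00111). Of 23 regulators of apoptosis, 4 were higher (2 without 4 h replicate 1 or control replicate 5) and 7 lower, and the higher count was near the share over all genes. Bcl2l11, the death factor Bim, fell to 0.553 of control (log2 fold change -0.86, SE 0.089, adjusted p = 3.04e-07) in its brightest probe set, while 2 other probe sets of the gene had log2 fold changes of 0.03 and -0.06 and did not pass, and the survival factor Mcl1 rose 1.27-fold (log2 fold change 0.35, SE 0.05, adjusted p = 1.54e-05).

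Markers of the other cells of the heart were lower in part, beside 19.2% of all genes. The share was above that in fibroblast and endothelial markers and near it in macrophage and mesothelial markers. Fibroblast markers were lower in 8 of 12 and higher in 0 (5 lower with each array centred on its median, 6 without replicate 5), with Pdgfra, Dpt (0.717 of control) and Fbln1 (0.754) lowest, and Dcn, decorin, at 0.913. Dcn lost its call without each of replicates 2 and 5 of the 4 h group and replicates 3, 4 and 5 of the control (limma, adjusted p = 0.0709 to 0.0989). Endothelial markers were lower in 6 of 11 and higher in 0 (1 without 4 h replicate 1 or control replicate 4), with Cldn5 at 0.615, Tie1 at 0.713 and Kdr at 0.773 of control, and their summed intensity was 2829 to 3352 at 4 h and 3287 to 3869 in control. Dimmer probe sets of Fbln1 and Kdr had log2 fold changes of -0.02 and 0.04 and did not pass (limma, adjusted p = 0.881 and 0.764). Among smooth muscle and pericyte markers, 5 of 10 were higher (Tagln, Cnn1, Acta2, Cspg4 and Des) and 2 lower (Rgs5 and Kcnj8). Their summed intensity was 14250 to 16600 at 4 h and 11750 to 12910 in control, and 4 of the 5 higher genes are also on the serum response factor or sarcomere lists. Macrophage markers were lower in 3 of 14 (5 without control replicate 4) and higher in 0, mesothelial markers lower in 1 of 7 (2 and 3 without 4 h replicate 2 and control replicate 5) and higher in 1, Schwann cell markers lower in 2 of 4 and higher in 0 (1 without 4 h replicate 3), with Mbp at 0.472 (log2 fold change -1.08, SE 0.1, adjusted p = 6.43e-08) in its brightest probe set and not in 2 others (both -0.02, adjusted p = 0.824 and 0.819), and erythroid markers in 0 of 5. Their part in the changes of other genes was not tested.

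The 4 h arrays were also compared directly with those of 1 h and of 12 h. Against 1 h, 197 probe sets (0.635%) differed at least 1.5-fold, 71 higher at 4 h (0.229%) and 126 lower (0.406%), and against 12 h 187 (0.602%), 118 higher at 4 h (0.38%) and 69 lower (0.222%). With no limit on the fold change, 17.5% of genes differed from 1 h and 12.1% from 12 h. The same 4 h arrays enter every comparison, so a choice by the 4 h call favours genes that are extreme at 4 h. The share of such genes over all genes was not counted. Of the 250 genes called higher than control at 4 h, 66 were also above both 1 h and 12 h, and of the 257 called lower 37 were below both. Those with the largest smaller difference were Aldh1a3, Dok5, an adaptor of receptor tyrosine kinases, S1pr3, a receptor of sphingosine 1-phosphate, Kcns3, a modulatory potassium channel subunit, and Prss35, a protease-like protein. Dok5 read 389.8, 422, 396, 405 and 418 in stretched myocytes, against 157, 174, 180.3, 165 and 171 in control. S1pr3 read 1659, 1716, 1847, 1743 and 1644 in stretched myocytes, against 1006, 1011, 1001, 949 and 998 in control. Both were without overlap, and S1pr3 exceeded 1 h by 0.63 and 12 h by 0.68 on the log2 scale (adjusted p = 1.77e-09 and 9.76e-10), and Dok5 by 0.91 and 0.77. On the lower side were Epha3, an ephrin receptor, Zc3h6, Tmem196, LOC100911508 and Mbd5. Epha3 read 353, 328, 259, 252 and 261 in stretched myocytes, against 626, 652, 538, 564 and 623 in control, without overlap, and its log2 differences were -0.52 from 1 h and -0.70 from 12 h. In Tmem196, LOC100911508 and Mbd5 replicate 5 was the lowest stretched array, and without it their log2 fold changes against control were -0.73, -0.68 and -0.51, against -0.91, -0.80 and -0.60 with it.

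Of the 953 called probe sets, 240 had more than 1 annotated gene or none, 84 higher and 156 lower. Among the named genes with several probe sets that were called at 1.5-fold, 11 had no other probe set past the test (Bcl2l11, Hadh, Inhba, Irx4, Mbp, Mylk, Pdk4, Per3, Plaur, Sesn1 and Tubb6). Some of the probe sets without a single gene carry a name in the gene lists that accompany the study. A probe set named Wisp1 there, for a matricellular protein, rose 2.12-fold (log2 fold change 1.08, SE 0.058, adjusted p = 3.13e-11). Npr3, the receptor that clears natriuretic peptides, read 114, 119, 89.8, 109.7 and 68 in stretched myocytes, against 283, 275, 275, 308 and 256 in control, and its groups did not overlap (log2 fold change -1.51, SE 0.13, adjusted p = 1.67e-08). The probe set that the annotation gives to Npr3 showed no such fall, with a log2 fold change of -0.09 (adjusted p = 0.558). One named Angpt1, for a ligand of endothelial Tie2, fell to 0.477 of control (log2 fold change -1.07, SE 0.11, adjusted p = 1.62e-07). The deepest fall among probe sets with no name was to 0.252 of control (log2 fold change -1.99, SE 0.12, adjusted p = 2.56e-10).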

How the data were processed

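RNA from neonatal rat ventricular myocytes was hybridized to Affymetrix Rat Genome 230 2.0 arrays. The authors normalized them by Robust Multichip Average in GeneSpring and deposited the values as intensity on a linear scale. Whole-number cells, which a spreadsheet had turned to dates, were restored (172 in the 10 arrays, 149 of them then between the lowest and highest value of the remaining arrays), and log2 was taken. The 57 technical control probe sets were left out. Control arrays are labelled only by a letter, and letter a was taken as the control of the set with 1, 4 and 12 h, from its match to the normalized values that the study lists.

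A linear model in limma (version 3.58.1) with 1 mean per group over 20 arrays (16 residual degrees of freedom) was followed by eBayes and Benjamini-Hochberg adjustment over 31042 probe sets. On simulated data the share of 200 changed probe sets recovered was checked first. The annotation gave 1 gene to 20826 probe sets, several to 436 and none to 9780, and each of 14217 genes was read from its brightest probe set. Named were the 15 largest rises and falls without overlap, up to 4 leading members of each list, up to 2 against the majority, members a list is known by, the 5 genes on each side that also differed from 1 h and 12 h, and genes with RNA measurements in the study. The other members of the ribosome and amino acid lists, and genes given only for their promoter, were added after their values were seen. The members and lists were chosen with earlier results of these data known. The study's methods call the replicates biological without saying whether each was a separate culture, so p-values measure the spread between these arrays. Promoters came from RefSeq, build GRCr8. Alternatives were other normalizations, variance models, filters, probe set rules, a pseudocount of 16, a replicate block and leaving out each array. Some results are not reported here.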

Additional observations from a re-analysis of the deposited data

Results flagged for a closer look

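Among the groups of 5 arrays of the 222 genes named, an array was noted where its gap to the nearest other exceeded Dixon's 95% critical value, and 31 of 444 groups held such an array. Chance gives about 1 in 20. Replicate 5 of the 4 h group was the array concerned in 11 of the 31. It was the highest 4 h array of Rgs2 (intensity 4655), Rrp1 (678.9), Isg15 (386.8), Calcrl (38.8) and Mx1 (26.1), and the lowest of Dkc1 (864.3), Kdr (371.2), Utp20 (324), Mki67 (320.4), Insr (187.8) and RGD1309362 (61.2). Replicate 1 was the lowest 4 h array of Nppb (14140), Atf4 (5068), Il1rl1 (3213) and Tars1 (1184). Replicate 2 was the lowest of Hspa5 (6172) and Mbp (75.3) and the highest of Eprs1 (2443), replicate 3 the highest of Egr2 (773.2) and replicate 4 the highest of Fbln1 (442.5). Among control arrays, replicate 5 was the highest for Atf4 (4183), Ccl7 (2421) and Usp18 (194.8) and the lowest for Mcl1 (1258), Ramp2 (408) and Tie1 (125.7). Replicate 4 was the highest for Xdh (398.4) and the lowest for S1pr3 (949.4) and Nr4a3 (41.2), replicate 2 was the lowest for Nppb (11560), and replicate 3 the highest for Prss35 (124.3).

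The direction against the shared control turned between times in 4 genes, each with a passed test of the difference. Ddit3 was at -0.17 at 4 h and 0.21 at 12 h (log2 difference between the times -0.38, limma, adjusted p = 2.58e-05), Rgs4 at 0.48 and -0.20 (0.67, adjusted p = 2.86e-07), and Tnfaip3 at 0.26 and -0.24 (0.50, adjusted p = 6.92e-06). Thbd was at -0.50 at 4 h and 0.47 at 1 h (log2 difference -0.98, adjusted p = 1.41e-06).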

How the results depend on the processing

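The results were recomputed under 12 alternatives and without each of the 10 arrays in turn. Representing each gene by 1 probe set gave 507 calls at 1.5-fold, 88 at 2-fold and 5578 with no limit on the fold change, and the mean of the probe sets of a gene gave 404, 74 and 5414, both over fewer features than the 31042 probe sets. Likewise there were 108 and 93 calls against 1 h and 86 and 78 against 12 h. Adding 16 to each intensity before the log gave 98 calls at 2-fold. The share of 1.5-fold calls that were higher was 49.4%. Its 95% exact binomial interval, 46.2 to 52.6, counts probe sets as independent, though several can read 1 gene. It does not measure the spread between arrays. The share turned to 52.8% with array weights, 56.2% with arrays centred on their median, 56.2% with the mean of probe sets and 56.4% without replicate 5 of the 4 h group. The cause was not tested. Without 1 array at a time, the counts were 906 to 1151 at 1.5-fold, 136 to 182 at 2-fold and 8133 to 9328 with no limit, 184 to 246 against 1 h and 168 to 203 against 12 h, and the share higher was 46.5 to 56.4%.

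Whether the replicate numbers pair the arrays is not stated, and weak correlations cannot exclude it. The correlations of same-numbered deviations between 4 h and control were -0.06, 0.06, 0.09, 0.02 and 0.34. Only replicate 5 correlated best with its own number. With the replicate block there were 952 calls at 1.5-fold, 156 at 2-fold and 8968 with no limit, 197 against 1 h and 184 against 12 h. Of the 207 named genes past the test, 200 kept their call under every alternative run and 7 lost it under at least 1 (Cpt1a, Dcn, Eprs1, Hspa5, Nr4a3, Ogt and Usp18), 0 of them with the replicate block. Ankrd1, Ryr2 and Srf, which did not pass, passed under 1 or 2 alternatives, and Ryr2 had a log2 fold change of -0.37 (adjusted p = 0.0017, limma) as the mean of its probe sets. No named gene changed direction. The other alternatives, not given with a value here, left the counts over all probe sets within 1.5 times of those in the report. Precision was limited by the 5 arrays of each group.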
